A study of Mus musculus with 14 samples.

Results

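The 8 genes *Cdh17*, *Ceacam1*, *Cpm*, *Sdcbp2*, *Clca3b*, *Clca3a1*, *Nlrp6* and *Fgf1* were followed through mouse hepatic stem cell cultures with and without endothelial-like cells. They were named as genes lowered when induced hepatic stem cells share a flat culture with induced endothelial cells, and they were selected on that measured difference in these same libraries, so it is given below as a description without a test. All 8 were found among the 28022 genes of the count table, and all 8 passed the filter on low counts in both fits. The name holds for 7 of them, whereas *Clca3a1* was higher in the 2D co-culture and lower in the 3D co-culture.

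Induced hepatic stem cells (iHepSCs) are C57BL/6J mouse embryonic fibroblasts that were converted with *Oct4* and *Hnf4α* from a lentiviral SFFV vector, and induced endothelial cells (iECs) are cells of the human fibroblast line HF1 that were converted with *ETV2*. Each of 7 conditions had 2 RNA-seq libraries: fibroblasts (Fib), iHepSCs in a monolayer (2D-iH, labelled 2D-iHepSC), a monolayer of iHepSCs with iECs (2D-iHE, labelled 2D-iHepSCiEC), organoids of iHepSCs alone (iHLO, labelled 3D-iHA), assembloids of iHepSCs and iECs (iHEA, labelled 3D-iHEA), adult liver and fetal liver. The labels do not use the name iHLO, and 3D-iHA was taken to be it. The libraries of all conditions are labelled with the strain C57BL/6J, and the cultures shared a medium that contained bFGF, hVEGF and oncostatin M. Co-cultures therefore mixed mouse and human cells, while reads were counted on mouse genes only. Total counts ranged from 20851489 to 35143325, and levels are given as CPM, the counts scaled to a size common to all libraries, on which 3 counts come to between 0.0771 and 0.196. The columns of all libraries carry the label rep1, while their names also number the 2 libraries of a condition. The p-values below therefore measure the spread between such libraries, pooled over the conditions of a fit, and this spread may be technical. The libraries of a pair differed by 3.03 to 3.53 times the sampling noise (chi-square per gene) in 5 conditions, by 10.8 times in iHEA and by 13.3 times in fetal liver. In bulk RNA, fewer cells of a type and less RNA per cell cannot be told apart.

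Several of these genes encode proteins of the cell surface. Cdh17 is the cadherin of the intestinal lining, known as liver-intestine cadherin, and it joins neighbouring cells without the long cytoplasmic tail of classical cadherins. Ceacam1 is an adhesion receptor of the immunoglobulin superfamily that in hepatocytes takes part in insulin clearance. Cpm is a membrane-bound carboxypeptidase that removes basic residues from the ends of peptides, and Sdcbp2 (syntenin-2) is a PDZ-domain scaffold that binds phosphoinositides. Clca3a1 and Clca3b belong to the secreted or membrane-tethered regulators of calcium-activated chloride conductance. Nlrp6 is an intracellular sensor of intestine and liver that can assemble inflammasomes, and Fgf1 is a fibroblast growth factor that binds all FGF receptors.

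The sequences upstream of 4 of the genes are shown because those of *Sdcbp2* and *Nlrp6* hold a common motif, whereas the family members *Clca3a1* and *Clca3b* went in opposite directions. Promoters were taken from RefSeq (GRCm38.p6), which matched 6 of the 8 genes (not *Cdh17* and *Fgf1*), and each line ends at the base before the annotated start. Capitals mark TGANTCA, the AP-1 motif, searched on both strands.
Sdcbp2 (chr2:151572373-151572621, plus strand): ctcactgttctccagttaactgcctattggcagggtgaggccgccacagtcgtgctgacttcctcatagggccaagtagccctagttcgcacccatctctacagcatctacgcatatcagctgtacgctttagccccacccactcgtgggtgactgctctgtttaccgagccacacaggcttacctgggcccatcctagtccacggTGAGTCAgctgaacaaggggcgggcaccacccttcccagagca
Nlrp6 (chr7:140920652-140920901, plus strand): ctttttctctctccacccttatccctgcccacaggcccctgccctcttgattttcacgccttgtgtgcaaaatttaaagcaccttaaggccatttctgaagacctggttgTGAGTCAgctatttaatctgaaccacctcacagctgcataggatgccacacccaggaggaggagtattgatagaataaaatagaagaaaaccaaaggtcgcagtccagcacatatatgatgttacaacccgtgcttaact
Clca3a1 (chr3:144760978-144761227, minus strand): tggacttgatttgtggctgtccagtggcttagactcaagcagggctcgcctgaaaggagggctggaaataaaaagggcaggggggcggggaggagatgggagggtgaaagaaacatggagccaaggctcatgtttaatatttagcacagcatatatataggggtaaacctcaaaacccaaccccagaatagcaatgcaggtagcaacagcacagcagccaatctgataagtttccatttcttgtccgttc
Clca3b (chr3:144849358-144849552, minus strand): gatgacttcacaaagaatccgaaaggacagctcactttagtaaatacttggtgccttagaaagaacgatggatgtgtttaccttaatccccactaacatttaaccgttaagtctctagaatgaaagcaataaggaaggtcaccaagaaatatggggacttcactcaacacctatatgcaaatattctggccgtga

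The AP-1 motif was found in 3 of the 6 promoters and in neither that of *Ceacam1* nor that of *Cpm*, which were also lower with iECs in 2D. It stood 44 to 38 bases before the RefSeq start of *Sdcbp2*, 140 to 134 bases before that of *Nlrp6* and 58 to 52 bases before that of *Clca3b*. The *Clca3b* match is not in capitals because it straddles the end of the printed line, of which the last 3 bases are its first: the line ends at the GENCODE start, 55 bases upstream of the RefSeq one. A window of 300 bases holds TGANTCA in 7.81% of 32851 promoters. TTTATG, a CDX motif, was matched in the *Clca3b* window alone and is held by 11.85% of promoters. None of the 6 windows held CAAAGTCCA (HNF4, in 0.475% of all promoters), CAAAGGTCA (DR1, in 0.478%), GGAATG (TEAD, in 14.7%) or AGATAA, a motif of zinc finger factors of blood and endoderm (in 11.2%). Over the 300-base windows, *Clca3a1* and *Clca3b* were 48.8% identical, at the top of a range of 39.5% to 48.8% over all pairs of the 6 genes.

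In the monolayers, 7 of the 8 genes were lower with iECs. By log2 fold change of 2D-iHE against 2D-iH, the differences were -1.86 for *Nlrp6*, -1.44 for *Clca3b*, -1.42 for both *Cdh17* and *Cpm*, -1.30 for *Ceacam1*, -0.93 for *Fgf1* and -0.84 for *Sdcbp2*, against 0.65 for *Clca3a1*. Among 13409 tested genes, 3.92% were called lower and 4.26% higher in this comparison (adjusted p under 0.05, edgeR's quasi-likelihood test), and since the genes were chosen on it nothing is read from their own calls. Of the 525 genes called lower, the 7 held places 1 to 5, 7 and 9 by p-value and places between 8 and 63 by size, which describes how they were chosen and supports nothing.

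The 3D comparison shares no library with the 2D one, but it was known when the genes were listed, so its calls are no independent support either. Between iHEA and iHLO, *Cdh17* and *Ceacam1* were called higher, *Clca3a1* was called lower, and the other 5 genes did not pass the threshold. The same test called 1.19% of 13409 genes higher (160 genes) and 1.07% lower (143 genes). In 3D the 8 genes had a median log2 fold change of 0.08, beside -0.01 over all tested genes, and in 2D one of -1.36, beside 0.00. Libraries with and without iECs did not overlap in 2D or in 3D and went in opposite directions for 5 of the 8 genes and for 7.99% of all tested genes, while 14.6% of all went the same way, and nothing is read from the 5 since the 2D values chose them. Whether the 2D and 3D differences of a gene differ was not tested, because one of them chose the genes. Of the 525 genes called lower with iECs in 2D, 34 (6.48%) were called lower and 11 (2.10%) higher in 3D (23.8% and 6.875% of the 3D lists), and *Cdh17* and *Ceacam1* were among the 11. Of the 571 genes called higher in 2D, 42 (7.36%) were called higher and 12 (2.10%) lower in 3D (26.25% and 8.39% of the 3D lists), and *Clca3a1* was among the 12.

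**Figure D1:**
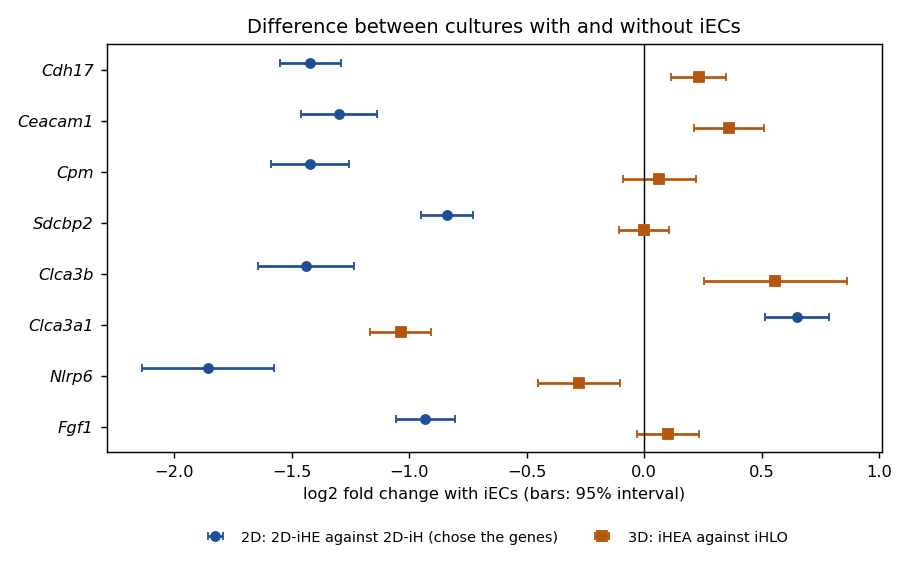
Log2 fold change of each gene with iECs (x axis), in monolayers (circles, 2D-iHE against 2D-iH, the comparison that chose the genes) and in 3D (squares, iHEA against iHLO), each from 2 libraries against 2, with 95% intervals of the edgeR fit. In 2D 7 genes lie between -1.86 and -0.84 and *Clca3a1* at 0.65, while in 3D 7 genes lie between -0.28 and 0.56 and *Clca3a1* at -1.04.

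*Cdh17* (chr4:11758147-11817895 in GRCm38, plus strand) had 3675 and 3490 counts in 2D-iH and 1558 and 905 in 2D-iHE, while iHLO libraries had 5876 and 6244 and iHEA libraries 7203 and 6092. As CPM these were 106 ± 5.13, 38.8 ± 1.76, 187 ± 10.6 and 217 ± 1.52 CPM (SD, n = 2), so the 2D-iHE libraries were the lowest of the cultures and the iHEA libraries the highest, with no overlap between neighbouring conditions. The rise of 0.23 ± 0.05 (log2 fold change ± SE) in iHEA over iHLO was close to the threshold (adjusted p = 0.0466, edgeR). Without iHLO library 1 the adjusted p was 0.39, without iHLO library 2 it was 0.0814, and with all 14 libraries in the fit it was 0.252. Fibroblasts already held *Cdh17*, with 1098 and 855 counts, and adult liver had 0 and 1 counts. Fetal liver had 85 and 41 counts, so the organoid cultures exceeded both livers, by 113-fold for iHEA over fetal liver on the CPM scale.

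*Ceacam1* (chr7:25461707-25477603, minus strand) had 4587 and 4397 counts in 2D-iH and 2072 and 1270 in 2D-iHE, and then 15167 and 15645 in iHLO and 18689 and 18063 in iHEA. It therefore had its lowest culture level in the 2D co-culture, 53.0 ± 0.39 CPM, and its highest in the 3D co-culture, 603 ± 52.6 CPM. In iHEA it rose by 0.36 ± 0.07 on the log2 scale over iHLO (adjusted p = 0.0167, edgeR), and this call too was lost without iHLO library 1 (adjusted p = 0.198), without iHLO library 2 (0.0856) and with all 14 libraries (0.132). In the livers *Ceacam1* separated the stages, with 2651 and 2906 counts in adult and 142 and 82 in fetal liver. Of its 50-base transcript windows, 30.4% also occur in other genes and 29.6% occur in *Ceacam2*. *Ceacam2* itself had 2 to 15 counts in the 8 culture libraries, and how reads that fit both genes were counted is not given in the sources used here.

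*Cpm* (chr10:117629500-117687352, plus strand) had 7914 and 6809 counts in 2D-iH and 3029 and 1963 in 2D-iHE, while iHLO libraries had 15180 and 15902 and iHEA libraries 15200 and 14952. Its iHLO and iHEA libraries overlapped, at 480 ± 22.3 and 495 ± 49.3 CPM, and the interval of the log2 difference between them was -0.09 to 0.22. *Sdcbp2* (chr2:151572622-151590005, plus strand) had 6572 and 5956 counts in 2D-iH and 4103 and 2349 in 2D-iHE, while iHLO libraries had 7065 and 7010 and iHEA libraries 7397 and 5783. The iHLO and iHEA libraries overlapped for this gene as well, at 217 ± 1.74 and 214 ± 13.4 CPM, with an interval from -0.11 to 0.11 around a difference of -0.00165. Per kilobase of exon *Sdcbp2* had the highest level of the 8 genes in all 4 culture conditions, from 72.5 CPM per kb in 2D-iHE to 155 in iHLO. In adult liver it had 2 and 6 counts and in fetal liver 19 and 11, so this culture level had no counterpart in either tissue.

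**Figure D2:**
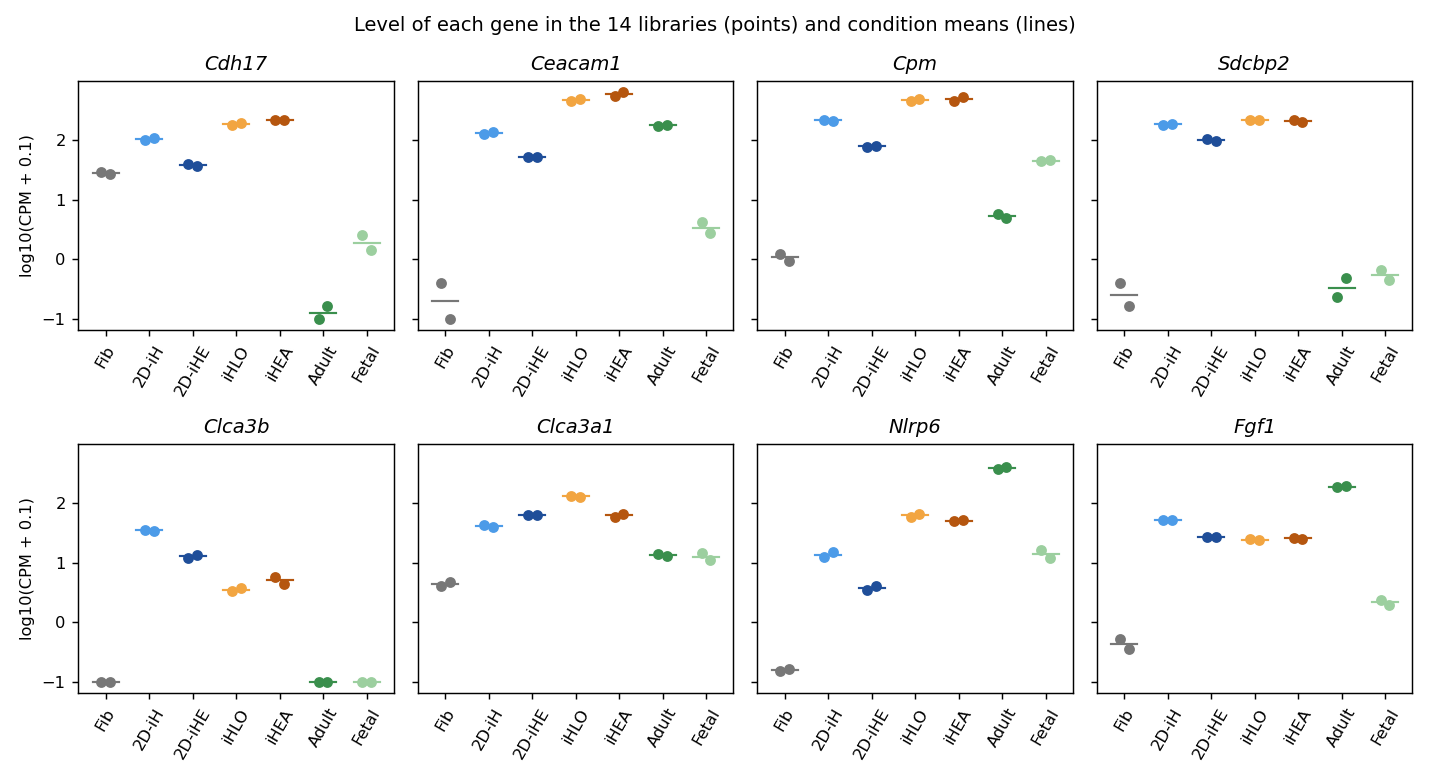
Levels of the 8 genes as log10(CPM + 0.1), with 1 point per library and a line at the mean of the 2 plotted values for each of the 7 conditions. *Cdh17*, *Cpm*, *Sdcbp2*, *Clca3b* and *Clca3a1* are higher in all cultures than in either liver, whereas *Nlrp6* and *Fgf1* are highest in adult liver.

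*Clca3b* and *Clca3a1* lie in the Clca gene cluster of chromosome 3 (chr3:144822623-144849357 and chr3:144729677-144760977, both on the minus strand), with *Clca3a2* between them. *Clca3b* had 1256 and 1098 counts in 2D-iH and 469 and 319 in 2D-iHE, while iHLO libraries had 107 and 116 and iHEA libraries 185 and 123. *Clca3a1* had 1507 and 1281, 2468 and 1524, 4279 and 4089, and 1958 and 1839 counts in the same order. The pair thus ran in opposite directions with iECs, in 2D as in 3D, and between 2D-iH and iHLO, and the share of *Clca3b* in their summed counts reached 45.5% and 46.2% for 2D-iH, 15.97% and 17.3% for 2D-iHE, 2.44% and 2.76% for iHLO and 8.63% and 6.27% for iHEA.

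With iECs, *Clca3a1* was 1.57-fold higher in 2D and fell by 1.04 ± 0.06 on the log2 scale in 3D (adjusted p = 3.32e-06, edgeR). Over the alternatives the 3D difference ranged from -1.13 to -0.95. It may have been listed for this 3D difference, since its 2D difference goes against the name of the group, so the call is a description as well. The 2D-iHE and iHEA libraries overlapped for *Clca3a1*, at 63.3 ± 0.13 and 62.2 ± 4.17 CPM, so the conditions with iECs stood between 2D-iH (41.1 ± 1.23 CPM) and iHLO (129 ± 2.40 CPM). *Clca3b* did not pass the threshold in 3D (0.56 ± 0.14 on the log2 scale, adjusted p = 0.0654, edgeR), although both iHEA libraries were above both iHLO libraries. Such a gap upward was found for 14.1% of all tested genes. Without iHEA library 2 it was called, at 0.70 and an adjusted p of 0.00629, and without the filter on low counts at 0.54 and 0.00363. Shared sequence limits these counts: 24.1% of the 50-base windows of *Clca3a1* occur in other genes, 22.2% in *Clca3a2* and 3.34% in *Clca3b*, and 4.39% of the *Clca3b* windows occur in *Clca3a1*. *Clca3a2* had 5 to 35 counts in the culture libraries. In addition, 170 exon bases of *Clca3a1* (4.36%) lie opposite the antisense gene *Gm34866*, and without strand information reads of the pair cannot be told apart.

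**Figure D3:**
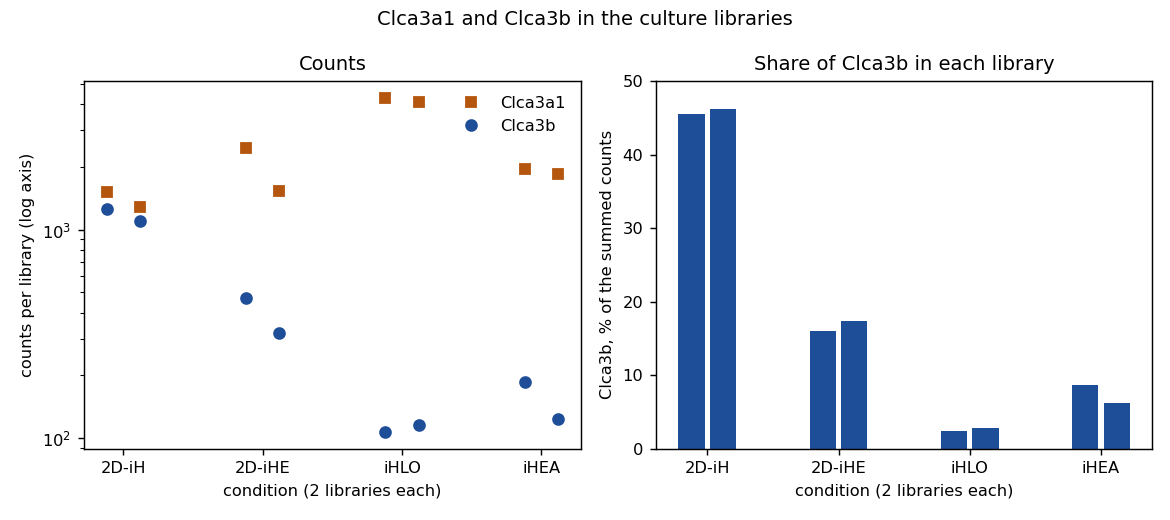
Left, counts of *Clca3a1* (squares) and *Clca3b* (circles) on a log axis in the 2 libraries of each culture condition, without scaling for library size. Right, the percentage of *Clca3b* in the summed counts of both genes in each library, which falls from 45.5% and 46.2% in 2D-iH to 2.44% and 2.76% in iHLO.

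*Nlrp6* (chr7:140920902-140929192, plus strand) had the lowest culture counts of the group in 2D-iHE, 133 and 96 against 440 and 468 in 2D-iH, while iHLO libraries had 1931 and 2091 and iHEA libraries 1645 and 1455. It was 3.625-fold lower with iECs in 2D and did not pass the threshold in 3D, at -0.28 on the log2 scale with an interval from -0.45 to -0.10 (adjusted p = 0.114, edgeR). Both iHEA libraries were nevertheless below both iHLO libraries, as for 25.9% of all tested genes, and without iHEA library 2 the difference was called, at -0.32 and an adjusted p of 0.0283, as it was without the filter (-0.29, adjusted p = 0.00140). The adult liver libraries, with 5684 and 6435 counts, were far above all cultures, while the fetal liver libraries (549 and 368 counts) overlapped with those of 2D-iH on the CPM scale.

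Of *Fgf1* (chr18:38838673-38929472, minus strand), 2D-iH had 1849 and 1674 counts, 2D-iHE 1040 and 648, iHLO 799 and 771, and iHEA 868 and 708. The 2D-iH libraries stood apart at 52.1 ± 0.76 CPM, and the other 3 culture conditions lay close together at 26.8 ± 0.11 (2D-iHE), 24.2 ± 0.28 (iHLO) and 25.7 ± 0.84 CPM (iHEA). The log2 difference between iHEA and iHLO had an interval from -0.03 to 0.23. Adult liver had 2820 and 3057 counts and fetal liver 78 and 57. Of the other *Fgf* ligands and receptors, none of 11 tested genes was called in either co-culture comparison by edgeR or DESeq2, and 2 had an unadjusted p under 0.05 in each. *Fgf2*, the ligand supplied to the medium as bFGF, had 29 to 80 counts in the culture libraries.

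All 8 genes differed between 3D and 2D culture. The 2D side of this comparison includes the 2D-iHE libraries, whose lower values chose most of the genes, so nothing is read from the calls. Between the mean of iHLO and iHEA and the mean of 2D-iH and 2D-iHE, 6 genes were higher in 3D and 2 were lower, where 40.2% of 13409 genes were called higher and 38.8% lower. Calls in this comparison were thus the rule rather than the exception. The rises were 8.23-fold for *Nlrp6*, 6.55-fold for *Ceacam1*, 3.81-fold for *Cpm*, 3.22-fold for *Cdh17*, 1.80-fold for *Clca3a1* and 1.615-fold for *Sdcbp2*, and *Clca3b* was 4.90-fold and *Fgf1* 1.46-fold lower (largest adjusted p = 5.45e-08, edgeR). The 8 had a median log2 fold change of 1.27, beside 0.01 over all genes, and the choice of the genes enters this median as well. Given side by side, iHLO over 2D-iH was 3.58-fold for *Ceacam1* and iHEA over 2D-iHE 11.4-fold, while the same ratios were 4.61-fold and 13.7-fold for *Nlrp6*, 2.21-fold and 6.21-fold for *Cpm*, 1.765-fold and 5.59-fold for *Cdh17* and 1.17-fold and 2.11-fold for *Sdcbp2*. The order was the opposite for *Clca3a1*, at 3.14-fold without iECs and 0.982-fold with them, and the ratios were below 1 for *Fgf1* (0.465 and 0.9575) and *Clca3b* (0.0991 and 0.394). These ratios use the 2D libraries that chose the genes, and their differences were not tested.

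Fibroblasts held little or none of most of these genes. In the mean of both monolayers all 8 were called higher than in fibroblasts, where 46.1% of 14121 genes were called higher and 39.4% lower. A gene chosen for a lower level with iECs had to be present in these monolayers, and some of the 8 passed the filter on low counts through the cultures, so nothing is read from this count. *Cdh17* differed least, at 2.16-fold. *Clca3b* had no counts in either fibroblast library and was at least 269-fold higher in the monolayers, against a floor of 3 counts per library. In fibroblast library 1, *Ceacam1* and *Sdcbp2* had 11 counts each, against 0 and 2 in library 2, so the fold changes of these genes rest on few fibroblast reads. Fibroblast counts were 43 and 26 for *Cpm*, 145 and 143 for *Clca3a1*, 2 and 2 for *Nlrp6*, and 16 and 8 for *Fgf1*.

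In liver tissue calls went in either direction, as over all genes, and nothing is read from their number. Adult liver was higher than fetal liver in *Fgf1* (92.6-fold), *Ceacam1* (52.9-fold) and *Nlrp6* (28.2-fold) and lower in *Cdh17* and *Cpm* (8.45-fold), so 3 genes were called higher and 2 lower, where 40% of 14121 genes were called higher and 43.8% lower. *Cpm* counts were 88 and 77 in adult and 1536 and 1435 in fetal liver. For *Cdh17*, with 0 and 1 counts in adult liver, the ratio of fetal to adult CPM was 60.4 with a 95% counting interval of 10.6 to 2402, and the fitted log2 difference of -5.72 became -9.02 without adult library 2 and -4.77 without adult library 1. *Sdcbp2* and *Clca3a1* did not pass the threshold, with adult counts of 215 and 205 and fetal counts of 485 and 338 for *Clca3a1* at 13.5 ± 0.76 and 12.6 ± 2.35 CPM, and *Clca3b* had no counts in either tissue. These values depend on the scaling of the libraries. The scaling factors (TMM) were 0.445 and 0.451 for adult liver, 1.185 and 1.218 for fetal liver and 1.09 to 1.19 for the cultures, and a lower factor raises the CPM. The median over all genes was -0.10 in this comparison and 0.02 with DESeq2's size factors.

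The conditions were checked against markers of liver. *Alb*, the albumin gene of hepatocytes, had 2 to 210 counts in the 8 culture libraries and 268280 to 8113083 in the liver libraries. *Hnf4a*, 1 of the converting factors, had 4117 to 7670 counts in the cultures. The vector carried mouse *Hnf4α*, and counts per gene cannot tell its transcripts from those of the cells' own gene. The marker lists stand beside 3.92% of all genes called lower and 4.26% higher in 2D, and 1.07% and 1.19% in 3D, and with so few genes in a list nothing particular to it is read from the counts. None of the mouse endothelial markers was called higher where human iECs had been added. Of the 12 endothelial genes, 8 were tested, and 3 were lower and 0 higher in 2D-iHE and 4 lower and 0 higher in iHEA by edgeR (DESeq2 3 and 5 lower and 0 higher, 6 at an unadjusted p under 0.05 in each), with summed levels of 501 to 506 CPM for 2D-iH, 426 to 447 for 2D-iHE, 1261 to 1401 for iHLO and 893 to 973 for iHEA. *Cldn5* was at 0 in all culture libraries, and *Cdh5* alone had 9451 to 16261 counts. Of 5 tested fibroblast markers, both tools called *Col1a1* alone, higher in 2D-iHE (1.97 ± 0.20 on the log2 scale) and lower in iHEA (-1.47 ± 0.33), while the others had differences of either sign, from -0.33 to 2.44 in 2D and from -0.93 to 0.62 in 3D. Of 5 tested hepatocyte genes edgeR called 2 lower in 2D-iHE, *Ttr* and *Alb*, of which *Alb* had 210 and 9 counts in the 2D-iH libraries, so that its call rests on 1 library, and 1 lower in iHEA. DESeq2 called 1 lower in 2D-iHE and 1 higher and 1 lower in iHEA. Of 6 tested cholangiocyte genes both tools called 1 lower in 2D-iHE, and in iHEA edgeR called 3 higher, *Sox9*, *Cldn4* and *Epcam*, and DESeq2 5. The part of human reads and of these cell mixtures in the differences of the 8 genes was not tested. All 6 proliferation genes were tested, and 0 were called in 2D or 3D co-culture by edgeR or DESeq2, with 2 in 2D and 0 in 3D at an unadjusted p under 0.05.

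Some genes of intestinal epithelium were lower with iECs in the monolayers. Of 28 listed genes, 19 were tested, and 8 were called lower and 0 higher in 2D-iHE against 2D-iH by edgeR and by DESeq2, where 3.92% of all genes were called lower by edgeR, while the other 11 did not pass the threshold (9 of 19 at an unadjusted p under 0.05). The 19 had a median log2 fold change of -0.54, beside 0.00 over all genes. Among the 8 called, the differences were largest for *Muc13*, a membrane mucin (-1.21 ± 0.19), *Cdhr5*, a protocadherin of the brush border (-0.71 ± 0.06), and *Lgals4*, a galectin (-0.68 ± 0.05). Leaving out any 1 library of the comparison left 6 called lower and 0 higher. In iHEA against iHLO, 2 of the 19 were called higher and 0 lower by both tools (8 at an unadjusted p under 0.05), *Phgr1* (0.97 ± 0.18) and *Gpa33* (0.56 ± 0.10), and without either iHLO library the count was 0. In 3D against 2D, 18 were higher and 1 was lower, where 40.2% and 38.8% of all genes were. The list was chosen with results of these data known, and nothing particular to it is read from the counts.

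**Figure D4:**
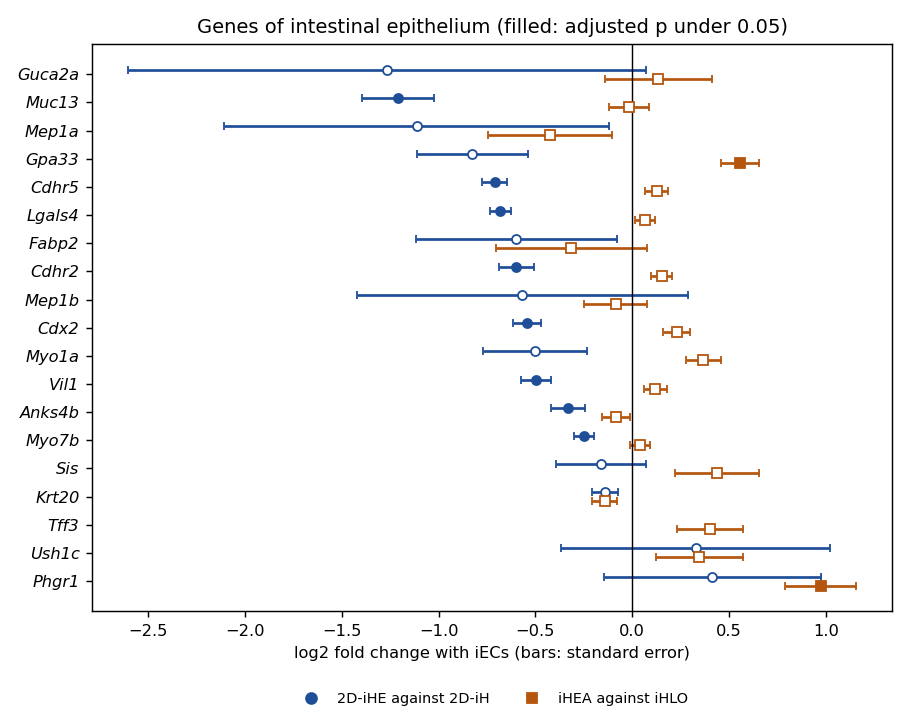
Log2 fold change with iECs (x axis, bars are standard errors) of the tested intestinal epithelium genes in 2D (circles, 2D-iHE against 2D-iH) and 3D (squares, iHEA against iHLO), filled where the adjusted p is under 0.05. The 8 filled circles all lie below 0 and the 2 filled squares above it, and *Tff3*, for which 2D gave no estimate, is shown for 3D alone.

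The lists of relatives of single genes are given by their counts, to be read beside the 3.92% of all genes called lower and 4.26% called higher in 2D and the 1.07% and 1.19% in 3D (edgeR). Among 13 tested cadherins and catenins, edgeR called 1 lower and 0 higher in 2D-iHE, *Dsg2* of desmosomes (-0.44 ± 0.08), and 2 higher and 0 lower in iHEA, *Cdh6* (0.33 ± 0.08) and E-cadherin *Cdh1* (0.23 ± 0.05). DESeq2 called 2 lower and 0 higher in 2D and 3 higher and 1 lower in 3D, and 5 and 6 of these genes had an unadjusted p under 0.05 in edgeR. *Cdh16*, the closest relative of *Cdh17*, had 2019 and 1721 counts in fibroblasts and at most 2 in a culture library. Among 9 tested genes of the CLCA family and calcium-activated chloride channels, edgeR called 2 lower and 0 higher in 2D, led by *Clca4a* (-1.85 ± 0.25), and 2 higher and 0 lower in 3D, led by *Clca2* (3.26 ± 0.68) on 2 to 33 counts in a 3D library. DESeq2 called 2 lower and 1 higher in 2D and 1 higher and 0 lower in 3D, and the unadjusted p of edgeR was under 0.05 for 3 and 6 of them. *Cpe* rose with iECs in both comparisons (0.76 ± 0.10 in 2D and 0.72 ± 0.12 in 3D), as the 1 gene called among 4 tested carboxypeptidases, while *Cpd* had differences of -0.03 and -0.11. None of 10 syntenin and syndecan genes was called by edgeR, and DESeq2 called 1 higher in 2D and 0 in 3D, with 3 and 1 at an unadjusted p under 0.05, and the relative *Sdcbp* had differences of -0.10 in 2D and -0.01 in 3D. Of 6 tested genes of the CEACAM family and its partners, 0 were called in either comparison by edgeR or DESeq2, and 1 had an unadjusted p under 0.05 in each.

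Where 4.26% of all genes were called higher and 3.92% lower in 2D and 1.19% and 1.07% in 3D, edgeR and DESeq2 gave the following calls for the lists on signalling. Of 14 tested inflammasome genes, edgeR called 3 higher and 0 lower in 2D-iHE (DESeq2 2 higher and 0 lower, 4 at an unadjusted p under 0.05), the inflammasome sensor *Nlrp3* (0.82 ± 0.23), the pore protein *Gsdmd* (0.28 ± 0.05) and the caspase *Casp4* (0.23 ± 0.05), and 0 were called in iHEA by edgeR or DESeq2, with 4 at an unadjusted p under 0.05. *Pycard*, the adaptor of Nlrp6, had 0 to 6 counts in the culture libraries, whereas *Casp1* had 1717 to 5857. Of 15 tested response genes of FGF and ERK signalling, 3 were lower and 0 higher in 2D-iHE by edgeR and by DESeq2 (6 at an unadjusted p under 0.05), the feedback inhibitor *Spry4* (-0.94 ± 0.09), the immediate early gene *Egr1* (-0.31 ± 0.07) and the phosphatase *Dusp5* (-0.25 ± 0.06), and leaving out any 1 library left 1 called. In iHEA 1 was lower by either tool, *Spred1* (-0.27 ± 0.06). Among 11 tested liver transcription factors, *Cebpa* was higher (0.81 ± 0.15) and *Hnf4a* lower (-0.29 ± 0.05) in 2D-iHE, and *Onecut2* was higher in iHEA (0.66 ± 0.09). The *Hnf4a* counts may include transcripts of the converting vector.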

How the data were processed

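RNA-seq of 14 libraries, 2 for each of 7 conditions, was analyzed from the table of counts deposited by the authors. Per the methods of the paper, they aligned 150 bp paired-end reads with HISAT2 to GRCm38 and counted them per gene with HTSeq. Trimmomatic 0.36 is recorded for trimming, a step that those methods do not give. Other versions, the strand setting and the handling of multi-mapped reads are not given in the sources used here. The deposited values are raw counts, all whole and summing to other totals in each library.

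Counts were fitted in edgeR 4.0.16 (R 4.3.3) with TMM scaling, 1 term per condition, the quasi-likelihood test and Benjamini-Hochberg adjustment over all tested genes (threshold 0.05). A gene was tested when log2(count + 1) averaged 3 or more, which gave 13409 genes in the 8 culture libraries (2D and 3D comparisons) and 14121 in all 14 (fibroblast and liver comparisons). CPM used TMM over 14 libraries. A group at 0 was set to a floor of 3 counts per library for a lower bound, and floors cover counting error only. The fits were tested on simulated data. The 8 genes and the gene lists were chosen with earlier results of these data known. Named from each list are at most the 3 called genes with the largest change per comparison and the closest relatives *Cdh16*, *Ceacam2*, *Clca3a2*, *Cpd*, *Sdcbp* and *Fgf2*; defining markers *Alb*, *Hnf4a*, *Cdh5*, *Cldn5*, *Pycard* and *Casp1* were added after their values were seen.

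Positions came from GENCODE M21, which matched 27619 of 28022 symbols (98.6%). Conditions were taken from the labels. The column of the second iHEA library carries 2 conflicting numbers and was used without a number. Equally numbered libraries did not deviate together (correlations -0.07 to 0.05), so numbers were not used as pairs. Alternatives were no filter, a filter of 5, DESeq2 1.42.0 (size factors and Wald test), a replicate block, other sets of libraries and each library of a comparison left out. The block and the numbered libraries alone both lack iHEA library 2, so the latter is the same fit as leaving that library out. The numbered libraries without the block and the alternatives for lists were chosen after seeing the data.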

Additional observations from a re-analysis of the deposited data

Results flagged for a closer look

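The differences with iECs pointed in opposite directions in 2D and 3D in every pair of libraries for 5 of the 8 genes. Of all 13409 tested genes 7.99% did so, but the 2D values chose the genes, so nothing is read from the count. The log2 fold changes in 2D and 3D were -1.42 and 0.23 for *Cdh17*, -1.30 and 0.36 for *Ceacam1*, -1.44 and 0.56 for *Clca3b*, 0.65 and -1.04 for *Clca3a1*, and -0.93 and 0.10 for *Fgf1*. The difference between 2D and 3D was not tested, since the 2D values chose the genes. Of the 3D values, those of *Clca3b* and *Fgf1* did not pass the threshold of edgeR (adjusted p = 0.0654 and 0.574).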

How the results depend on the processing

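In 3D, 2 of the genes were called higher and 1 lower in iHEA. None was called higher with all 14 libraries (0) or with the 4 libraries of the comparison alone (0), and the count ranged from 0 to 3 when 1 library was left out, with 0 for either iHLO library. *Clca3b* made it 3 without the filter (adjusted p = 0.00363, edgeR). The numbered libraries alone are the same fit as that without iHEA library 2. The replicate block leaves this library out as well, and its numbers share no deviations. The count of lower calls was 2 without the filter and with the numbered libraries alone, and 1 to 2 with 1 library left out. Over all genes, 303 were called in this comparison, 881 without the filter, 617 with the replicate block, 646 with the numbered libraries alone, 90 with the comparison alone and 93 to 723 with 1 library left out. For 2D-iHE against 2D-iH, 1096 genes became 1945 with the replicate block, 2002 with the numbered libraries alone, 2046 with the comparison alone and 250 to 426 with 1 library left out. Reversed signs in 3D were those of *Cpm*, at -0.0305 with the block, -0.0606 with the numbered libraries alone and -0.0606 to 0.18 with 1 library left out. *Sdcbp2*, at -0.00165, became 0.00325 with the filter of 5, 0.00275 with DESeq2's size factors, 0.00283 with its Wald test, 0.0452 with the block, 0.0437 with the numbered libraries alone, 0.00921 with the comparison alone and -0.0483 to 0.0437 with 1 library left out. *Clca3a1* in adult against fetal liver went from 0.13 to -0.0539 without fetal library 2 and was called at 0.38 without fetal library 1 (adjusted p = 0.00637). Of the log2 fold changes of single genes under the alternatives, 464 kept their direction and side of the threshold, 12 reversed, 8 were lost as calls and 8 gained. For comparisons with iHEA, this tally counts the fit without iHEA library 2 under both of its names. Causes of these changes were not tested. The filter of 5 left out *Clca3b* from the comparisons over 14 libraries.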

Other observations

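Over the 7 condition means of log2 CPM, the gene most like *Ceacam1* among 14121 genes was *Cdhr5* of the intestinal brush border (Pearson's r = 0.996), with 2800 and 2689 counts for 2D-iH, 1932 and 1151 for 2D-iHE, 10382 and 10093 for iHLO and 10798 and 9997 for iHEA. The nearest profile to *Nlrp6* was that of *Ugt2b35*, a UDP-glucuronosyltransferase (r = 0.994), and that nearest to *Clca3b* belonged to the keratin *Krt6b* (r = 1.000), which like it had no counts in fibroblasts and livers. The other nearest genes were *Foxj3* for *Cdh17* (0.997), *Rps24* for *Cpm* (0.996), *C920009B18Rik* for *Sdcbp2* (0.999), *Vwa7* for *Clca3a1* (0.987) and *Gng5* for *Fgf1* (0.993). Nearest to the mean profile of the 8 were *Aftph* (0.995), *Rpl18-ps1*, *Ecscr*, *Desi1* and *Pick1*. With 7 points that share libraries and scaling, these values describe likeness of profiles only. They ignore the size of a change: *Foxj3* had 68.1 CPM in 2D-iH and 59.9 in 2D-iHE, where *Cdh17* had 106 and 38.8.

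Between the 8 genes themselves, r ranged from -0.32 (*Cdh17* and *Nlrp6*) to 0.95 (*Sdcbp2* and *Clca3b*) over the same 7 means. *Nlrp6* and *Fgf1*, both highest in adult liver, had an r of 0.82, and *Clca3a1* and *Clca3b*, which ran in opposite directions with iECs, had 0.81 across all conditions.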
